A study of Solanum lycopersicum with 6 samples.

Results

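The genes described here encode pentatricopeptide repeat (PPR) proteins of the chloroplast in tomato. They were taken as all rows of the deposited gene table whose description contains both "pentatricopeptide" and "chloroplastic", in any case, which gave 89 of 36224 rows. No measured value entered that choice. Of these, 20 carry "-like" after the location, and 2 are described as both chloroplastic and mitochondrial. A description is a homology label, so the location of the tomato protein is inferred and not measured. RNA was sequenced from pericarp, the fruit wall, of wild-type fruit (WT, 3 libraries) and of fruit from transgenic plants overexpressing the histone demethylase SlJMJ6 (JMJ6-OE, 3 libraries), all of the cultivar Ailsa Craig and all taken 37 days after anthesis. Plants of both genotypes grew in a greenhouse with the same temperature and light cycle. The labels give neither the promoter of the transgene nor the number of independent transgenic lines, and they do not say whether replicates are separate plants, and the p-values therefore describe only the spread among these 6 libraries, which may be technical.

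PPR proteins form one of the largest protein families of land plants. They are built from tandem copies of a short helical repeat, each of which contacts a base of RNA, so that a whole protein binds a defined stretch of an organelle transcript. They are encoded in the nucleus and imported into chloroplasts or mitochondria, where members of the P class stabilise, process, splice or help translate particular RNAs, and members of the PLS class mark single cytidines for editing to uridine. As a tomato fruit ripens its chloroplasts become chromoplasts, which lose the photosynthetic membranes and accumulate carotenoids while keeping the plastid genome. The known roles given below come from Arabidopsis, or from maize where that is stated, and each tomato gene is called by the Arabidopsis locus or protein named in its description. Homology of a description does not show that the tomato gene has the same role.

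The libraries held 28539410 to 36487547 counts. The test throughout is the quasi-likelihood test of edgeR, with p-values adjusted over all tested genes by Benjamini-Hochberg and a threshold of 0.05. Of 20143 genes tested, 3517 rose in JMJ6-OE and 3394 fell. No row carries the name JMJ6, so the level of the overexpressed transcript was not checked here. Markers of ripening fruit separated the genotypes. Transcript of the polygalacturonase PG2 (Solyc10g080210.2), which degrades pectin, stood at 36.4 to 48.8 CPM (counts per 1000000, on the scaled library size) in WT and at 3869 to 5102 CPM in JMJ6-OE. Of 63 tested genes described as photosystem or chlorophyll-binding antenna proteins, 40 were lower and 3 higher, with a median log2 fold change of -1.17. Their summed level was 9094 to 10510 CPM in the WT libraries and 3634 to 4971 CPM in JMJ6-OE. The part that ripening stage plays in the differences given below was not tested.

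Most chloroplast PPR transcripts differed little between the genotypes beside all tested genes, and called genes went in both directions. Of the 89 genes, 62 had enough counts to be tested, 7 of them rose in JMJ6-OE, 10 fell and 45 did not pass the test. The 17 called genes are 27.4% of the tested ones, where 34.3% of all tested genes were called. In the higher direction the share was 11.3% against 17.5% of all tested genes, and in the lower direction 16.1% against 16.8%. With upper-quartile scaling of the libraries 4 genes were higher and 12 lower, which is 6.45% against 15.3% of all tested genes and 19.4% against 18.9%. The lower share was thus near the background, on either side of it by scaling. In bulk tissue, fewer cells of a type and less RNA per cell cannot be told apart.

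The sizes of the differences were also modest. A difference of at least 2-fold was found for 3 called genes, all lower in JMJ6-OE, against 14.7% of all tested genes in either direction. An absolute log2 fold change below 0.5 was estimated for 77.4% of the tested chloroplast PPR genes and for 61.2% of all tested genes. The median log2 fold change was -0.186 (quartiles -0.371 and 0.105), beside a median of -0.012 over all tested genes, and 40 of 62 estimates were below 0. The CPM values of the groups did not overlap for 31 of the 62, or 50%, against 51.4% of all tested genes. All 17 called genes were among these 31.

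**Figure D1:**
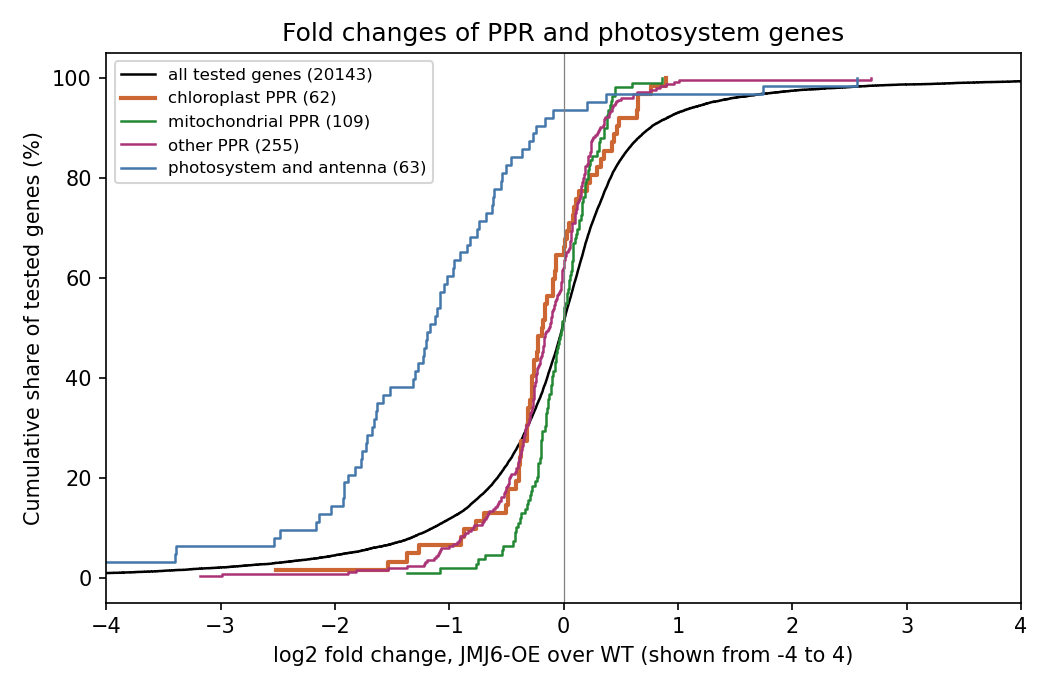
Cumulative share (%) of tested genes at or below each log2 fold change of JMJ6-OE over WT, for all tested genes, chloroplast, mitochondrial and other PPR genes and photosystem and antenna genes, with the number tested in brackets. The chloroplast PPR curve is steeper than that of all genes and crosses 50% at -0.186, while the photosystem curve lies to the left with a median of -1.17.

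PPR genes described with other locations are given for background. Of 128 rows described as mitochondrial and not chloroplastic, 109 were tested, 4 were higher and 6 lower in JMJ6-OE (9.17% called), and the median log2 fold change was -0.011. Of 309 PPR rows with neither word, 255 were tested, 7 were higher and 32 lower (15.3% called), with a median of -0.13. The share called over all tested genes was 34.3%. The median absolute log2 fold change was 0.314 for chloroplast, 0.19 for mitochondrial and 0.255 for other PPR genes, against 0.366 for all tested genes. The groups did not overlap for 50% of chloroplast, 27.5% of mitochondrial and 39.2% of other PPR genes, against 51.4% of all. By both measures the chloroplast set lay nearer to all tested genes than the other PPR sets did. Over the libraries the summed level of the chloroplast PPR rows was 1024 to 1064 CPM in WT and 930.5 to 1032 CPM in JMJ6-OE, and that of the mitochondrial rows was 1008 to 1067 and 1045 to 1060 CPM. The ranges of both sums overlapped between the genotypes. Differences between these sets were not tested, and the sets also differ in level. The median FPKM (fragments per kilobase of transcript and 1000000 fragments, the authors' values, averaged over the libraries) of the tested genes was 4.48 for chloroplast, 2.83 for mitochondrial and 2.23 for other PPR genes, against 9.3 for all tested genes.

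**Figure D2:**
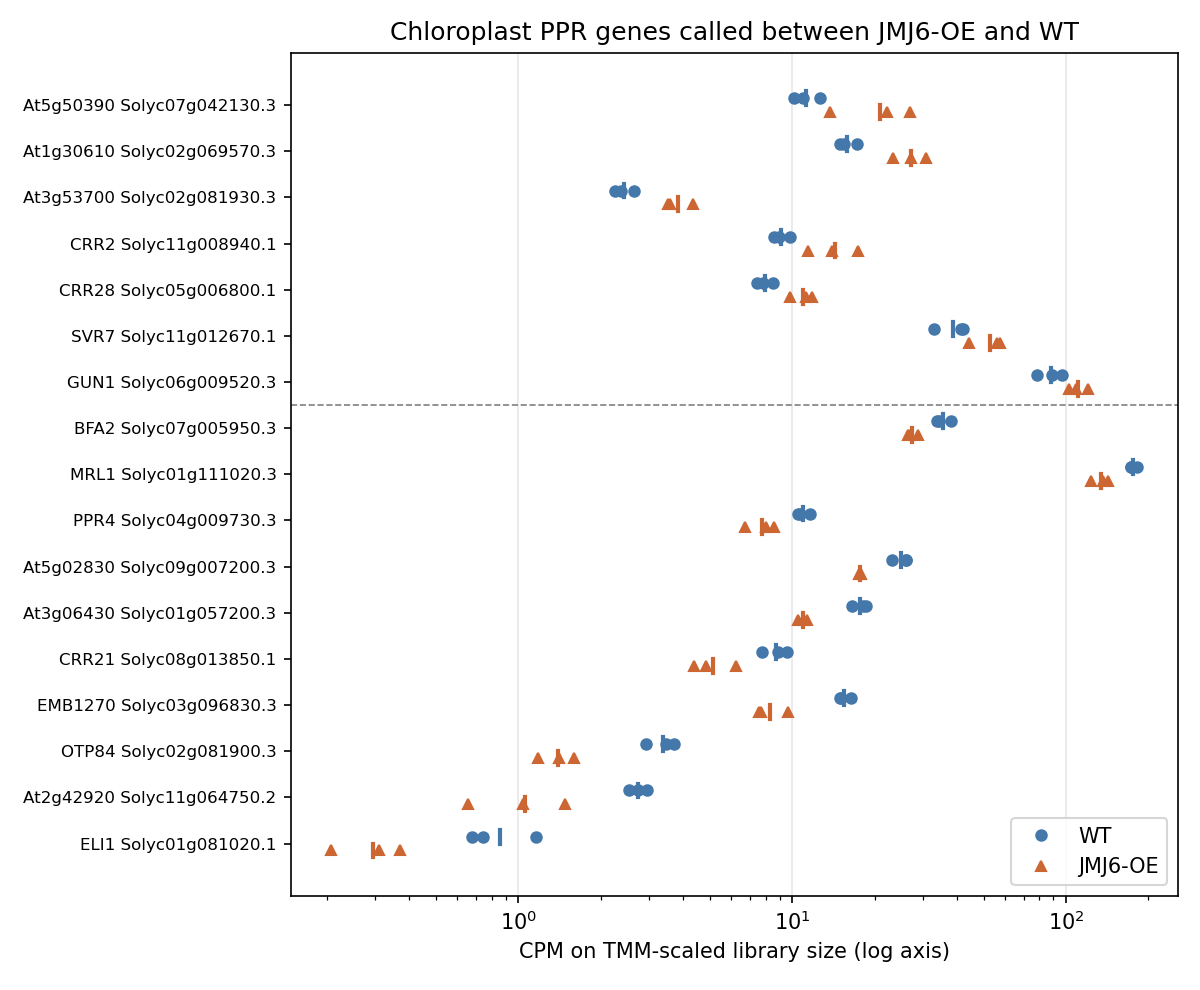
CPM (log axis) in each library for the 17 called chloroplast PPR genes, ordered by fold change, with WT as circles, JMJ6-OE as triangles and short vertical lines at the group means. The 7 genes above the dashed line were higher in JMJ6-OE and the 10 below it were lower, and in no row do the groups overlap.

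Among the groups with a listed role, editing factors had the most members. The descriptions name 13 loci listed here as editing factors of plastid transcripts, in 31 rows, of which 19 were tested. Over all tested genes 17.5% were called higher and 16.8% lower, and the counts of each role group stand beside these shares. Among the 19 tested editing rows 3 fell, 1 rose and 15 did not pass, with a median log2 fold change of -0.275. The part that fell is near the share of all tested genes. The 4 called genes all correspond to factors that in Arabidopsis edit transcripts of the NDH complex, a thylakoid enzyme that passes electrons to plastoquinone, although many of the uncalled loci do so too.

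The gene described by the locus of OTP84 (Solyc02g081900.3), which edits ndhB, ndhF and psbZ transcripts, stood at 3.72, 3.46 and 2.93 CPM in the WT libraries and at 1.18, 1.61 and 1.41 CPM in JMJ6-OE. Every WT value was above every JMJ6-OE value, and the log2 fold change of -1.27 ± 0.23 (SE, n = 3 per group) had an adjusted p of 0.0063. This call held when any 1 of the 6 libraries was omitted (highest adjusted p = 0.025). The gene described by the CRR21 locus (Solyc08g013850.1), an editing factor of ndhD, had 7.74, 8.92 and 9.55 CPM in WT and 6.23, 4.37 and 4.86 CPM in JMJ6-OE. It fell by 0.76 ± 0.18 on the log2 scale (adjusted p = 0.016), with JMJ6-OE replicate 1 nearest to WT. The call was lost without JMJ6-OE replicate 2 or 3 or WT replicate 2 or 3, with adjusted p from 0.053 to 0.065.

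ELI1 (Solyc01g081020.1), an editing factor of ndhB, was barely expressed, at 0.744, 0.676 and 1.16 CPM in WT and 0.31, 0.208 and 0.371 CPM in JMJ6-OE. With 7 to 45 counts per library, its log2 fold change of -1.54 ± 0.42 (adjusted p = 0.028) is the least precise of the called ones. It was lost without any 1 of the JMJ6-OE replicates or WT replicate 2 or 3 (adjusted p = 0.051 to 0.11). The gene described by the CRR28 locus (Solyc05g006800.1), which edits ndhB and ndhD and whose description names both organelles, went the other way. Its level was 8.49, 7.84 and 7.47 CPM in WT and 9.8, 11.3 and 11.8 CPM in JMJ6-OE, a log2 fold change of 0.47 ± 0.13 (adjusted p = 0.032). That call was lost on omitting any 1 library other than JMJ6-OE replicate 1, with adjusted p from 0.052 to 0.11.

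Of the 15 editing genes that did not pass, 12 had estimates below 0, and some of these rows share a locus. Over all tested genes, called or not, 10284 of 20143 estimates were below 0. Both rows described by the CRR22 locus, an editing factor of ndhB, ndhD and rpoB, had negative estimates. They were -0.32 ± 0.18 for Solyc02g082160.2 (adjusted p = 0.21), whose groups did not overlap, and -0.18 ± 0.15 for Solyc02g079380.2 (adjusted p = 0.37). The 3 tested rows described by the OTP82 locus ranged from -0.31 (Solyc07g053520.2) to -0.17 (Solyc01g081110.3). Solyc04g076330.2 of the OTP81 locus, an editing factor of rps12, had -0.32 ± 0.22 (adjusted p = 0.30), without overlap of the groups. That of the OTP85 locus (Solyc05g013200.1), another editing factor of ndhD, stood at 10.8, 10.5 and 10.8 CPM in WT and at 10.8, 8.68 and 7.08 CPM in JMJ6-OE. JMJ6-OE replicate 1 thus lay within the WT range and the others below it (-0.28 ± 0.17, adjusted p = 0.24). CRR4 (Solyc01g091240.3), which together with the small protein DYW1 edits the start codon of ndhD, had -0.15 ± 0.26. Solyc11g071370.1 of the CLB19 locus, which edits rpoA and clpP, had 0.23 ± 0.24 and Solyc09g065710.1 of the OTP86 locus, which edits rps14, 0.03 ± 0.25. A second row of the CRR28 locus (Solyc10g080220.2) had -0.42 ± 0.26, opposite in sign to the called row, and did not pass (adjusted p = 0.25). Symbol and locus disagree for some of these rows. This second row carries the symbol PCMP-H12, as does Solyc12g006575.1 of the OTP82 locus. The OTP81 row carries PCMP-H40, as both CRR22 rows do.

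**Figure D3:**
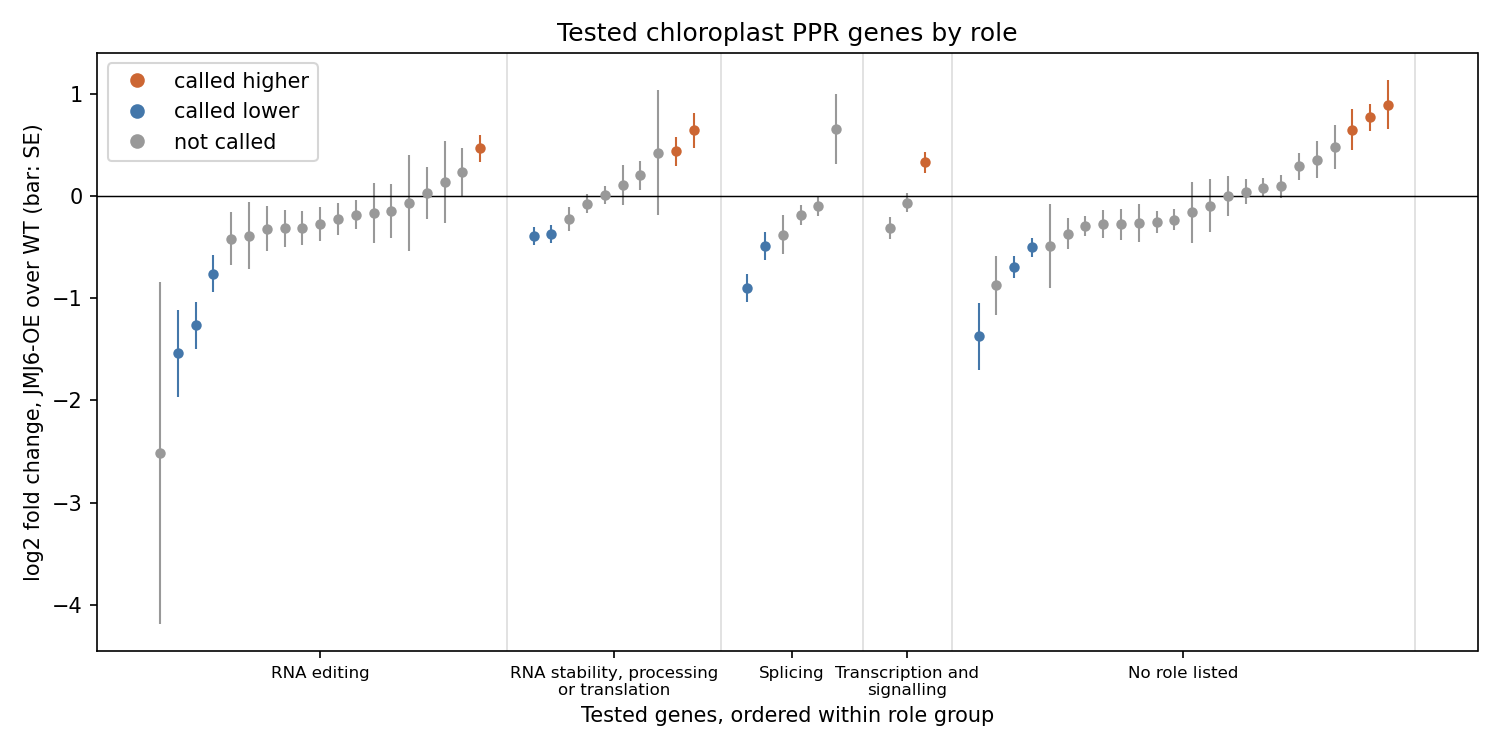
Log2 fold change of JMJ6-OE over WT with its SE for each of the 62 tested chloroplast PPR genes, grouped by the role listed here for the locus in the description and ordered within a group. Called genes lie on both sides of 0 among editing factors (3 lower, 1 higher) and among factors of RNA stability, processing or translation (2 lower, 2 higher), and the point at -2.51 is an uncalled gene with a wide error.

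Factors listed here as stabilising or processing plastid RNA, or as helping to translate it, made up 14 rows. Of these 10 were tested, 2 rose, 2 fell and 6 did not pass. MRL1 (Solyc01g111020.3), which protects the transcript of the large Rubisco subunit in Arabidopsis and the alga Chlamydomonas, stood at 173.4, 182.0 and 172.1 CPM in WT and at 123.0, 137.0 and 142.7 CPM in JMJ6-OE. The groups are well apart, and the 1.31-fold decrease (log2 fold change -0.39 ± 0.09, adjusted p = 0.014) lost its call in 1 fit, without JMJ6-OE replicate 2 (adjusted p = 0.056). Solyc07g005950.3, described by the locus of BFA2, which stabilises a transcript of the plastid ATP synthase genes atpH and atpF, had 34.0, 34.3 and 38.1 CPM in WT and 28.9, 26.8 and 26.5 CPM in JMJ6-OE. It fell by 0.37 ± 0.09 on the log2 scale (adjusted p = 0.019), a call lost without JMJ6-OE replicate 2 or 3 or WT replicate 3 (adjusted p = 0.056 to 0.082).

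The gene of the SVR7 locus (Solyc11g012670.1), needed for normal levels of the plastid ATP synthase, rose from 32.8, 42.0 and 41.5 CPM in WT to 44.2, 56.2 and 57.4 CPM in JMJ6-OE. WT replicate 1 was the lowest library, JMJ6-OE replicate 1 lay closest to WT, and the log2 fold change was 0.44 ± 0.14 (adjusted p = 0.047). The gene of the CRR2 locus (Solyc11g008940.1), which takes part in the cleavage between rps7 and ndhB, rose from 8.59, 8.94 and 9.86 CPM to 11.5, 14.0 and 17.4 CPM (0.64 ± 0.17, adjusted p = 0.024). Both calls were lost on omitting any 1 library other than JMJ6-OE replicate 1, with adjusted p from 0.079 to 0.15 for SVR7 and 0.053 to 0.08 for CRR2. For SVR7 the call was also missing with upper-quartile scaling (adjusted p = 0.061), limma-voom (0.0503) and no filter (0.051).

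PGR3 (Solyc04g015440.3), which stabilises the petL transcript of the cytochrome b6f complex, had the estimate nearest to 0 in this group. Its level was 25.5, 27.3 and 26.6 CPM in WT and 27.6, 25.03 and 27.4 CPM in JMJ6-OE, with a log2 fold change of 0.01 ± 0.09 (adjusted p = 0.95). Solyc07g017760.1 of the PPR10 locus, named after the maize protein that guards the ends of atpH and psaJ transcripts, had 0.20 ± 0.14 (adjusted p = 0.30). The row of the PPR5 locus with that symbol (Solyc04g054270.3), described in maize as a guard of an unspliced plastid tRNA, had -0.22 ± 0.12 (adjusted p = 0.18), without overlap of the groups. The gene of the SOT1 locus (Solyc08g077120.2), which acts in maturation of plastid ribosomal RNA, stood at 0.26 to 1.09 CPM over the libraries and had 0.42 ± 0.61 (adjusted p = 0.63), or -0.44 without JMJ6-OE replicate 1. The other 2 rows given the PPR5 locus, Solyc07g054090.3 and Solyc07g054100.2, had -0.08 ± 0.09 and 0.11 ± 0.20 and carry another locus as their symbol.

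Loci listed here as splicing factors made up 7 rows, of which 6 were tested, 2 fell and 4 did not pass. The list is not complete, and a splicing factor outside it is not counted here. None of the listed genes was called higher by edgeR, DESeq2 or limma-voom or at an unadjusted p below 0.05, all on the same libraries. Over all tested genes 17.5% were called higher and 16.8% lower, so 6 rows are too few to read this as one-sided. Among them the OTP70 row alone had an estimate above 0. EMB1270 (Solyc03g096830.3), required for splicing of several plastid group II introns, had the smallest adjusted p of all chloroplast PPR genes. Its level was 15.1, 16.4 and 14.98 CPM in WT and 9.64, 7.55 and 7.67 CPM in JMJ6-OE. The WT values lie close together and well above those of JMJ6-OE, and the log2 fold change of -0.90 ± 0.14 (adjusted p = 0.0031) kept its call without each library in turn, with adjusted p up to 0.019.

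PPR4 is a factor of rps12 trans-splicing, first described in maize, and 2 tested rows carry its locus. Solyc04g009730.3 fell from 11.6, 10.5 and 10.7 CPM in WT to 8.59, 6.75 and 8.04 CPM in JMJ6-OE, a difference of -0.49 ± 0.14 on the log2 scale (adjusted p = 0.032). Solyc11g006680.2, at a mean of 47.8 CPM, had -0.10 ± 0.10 (adjusted p = 0.46). The call of the first row was lost on omitting any 1 library other than JMJ6-OE replicate 1 (adjusted p = 0.065 to 0.11). OTP51 (Solyc11g066850.2), needed to splice an intron of ycf3, spread widely in JMJ6-OE, at 36.5, 53.2 and 61.1 CPM against 59.3, 62.6 and 74.2 CPM in WT. Replicate 1 was lowest and replicate 3 within the WT range, and the gene did not pass (-0.38 ± 0.19, adjusted p = 0.16). Solyc02g087560.1 of the PDM3 locus, a further splicing factor, had -0.19 ± 0.10 (adjusted p = 0.17), without overlap, and that of the OTP70 locus (Solyc03g025700.1), a factor of rpoC1 splicing, 0.65 ± 0.34 (adjusted p = 0.18).

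The remaining loci on the role list used here concern plastid transcription and signalling to the nucleus. The gene of the GUN1 locus (Solyc06g009520.3), a central factor by which plastids repress nuclear photosynthesis genes when plastid gene expression is disturbed, stood at 78.6, 89.2 and 96.4 CPM in WT and at 102.4, 108.7 and 120.6 CPM in JMJ6-OE. All JMJ6-OE values were higher, by 1.26-fold on the fitted scale (log2 fold change 0.33 ± 0.11, adjusted p = 0.047). The call was lost without JMJ6-OE replicate 2 or 3 or any 1 of the WT replicates (adjusted p = 0.061 to 0.14), and with upper-quartile scaling (0.064) or no filter (0.056). PTAC2 (Solyc03g113630.3), a component of the plastid transcription complex, had 66.0, 74.1 and 61.6 CPM in WT and 64.8, 60.6 and 67.4 CPM in JMJ6-OE. Its groups overlapped, with a log2 fold change of -0.06 ± 0.10 (adjusted p = 0.63). DG1 (Solyc02g092310.3), needed for timely greening of young leaves, had 24.0, 25.4 and 23.5 CPM in WT and 21.0, 20.4 and 17.2 CPM in JMJ6-OE. It did not pass although the groups did not overlap (-0.31 ± 0.11, adjusted p = 0.060), and passed with upper-quartile scaling (0.048) and without JMJ6-OE replicate 1 (0.042).

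Genes whose locus had no listed role gave 24 tested rows, of which 3 rose and 3 fell. Absence from the role list does not show that a locus has no known plastid role. Solyc01g057200.3, with the symbol EMB2750 and a locus needed for embryo development in Arabidopsis, stood at 18.7, 16.5 and 18.1 CPM in WT and at 11.3, 10.6 and 10.9 CPM in JMJ6-OE, which is -0.70 ± 0.11 on the log2 scale (adjusted p = 0.0031). A second row of that locus, Solyc12g098990.2, had 16.9, 16.7 and 16.9 CPM in WT and 14.5, 13.2 and 13.5 CPM in JMJ6-OE, also without overlap, and just missed the threshold (-0.29 ± 0.10, adjusted p = 0.056). It passed with upper-quartile scaling (0.036), with the 1 CPM filter (0.048) and without JMJ6-OE replicate 1 (0.043). Solyc02g069570.3, with the symbol EMB2279 of another embryo-defective mutant, rose from 14.9, 17.3 and 15.5 CPM to 23.3, 27.3 and 30.7 CPM (0.77 ± 0.13, adjusted p = 0.0043). Solyc09g007200.3, described by At5g02830, fell from 26.0, 26.1 and 23.1 CPM to 17.6, 17.6 and 17.9 CPM (-0.50 ± 0.10, adjusted p = 0.0069). The called rows EMB2750, EMB2279 and At5g02830 kept their calls without each library in turn, with adjusted p up to 0.036.

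The other 3 called rows of this group were less firm. Solyc11g064750.2, described by At2g42920, had 2.74, 2.96 and 2.55 CPM in WT and 1.49, 0.654 and 1.04 CPM in JMJ6-OE. The difference of -1.37 ± 0.33 on the log2 scale (adjusted p = 0.017) was not called without JMJ6-OE replicate 3 (0.051) or WT replicate 2 (0.060). Solyc07g042130.3, described by At5g50390, rose from 10.2, 11 and 12.6 CPM to 13.7, 22.2 and 26.9 CPM (0.89 ± 0.24, adjusted p = 0.027). JMJ6-OE replicate 1 lay close to WT, and the call was lost on omitting any 1 of the other 5 libraries (adjusted p = 0.053 to 0.086). Solyc02g081930.3 rose from 2.27, 2.38 and 2.65 CPM to 4.34, 3.6 and 3.52 CPM (0.65 ± 0.20, adjusted p = 0.039). It is described after a protein of sacred lotus, the implied length of its transcript is only 486 bases, and its call was lost without each library in turn (adjusted p = 0.066 to 0.13). Upper-quartile scaling (0.060) and the absence of a filter (0.0502) also left it uncalled.

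**Figure D4:**
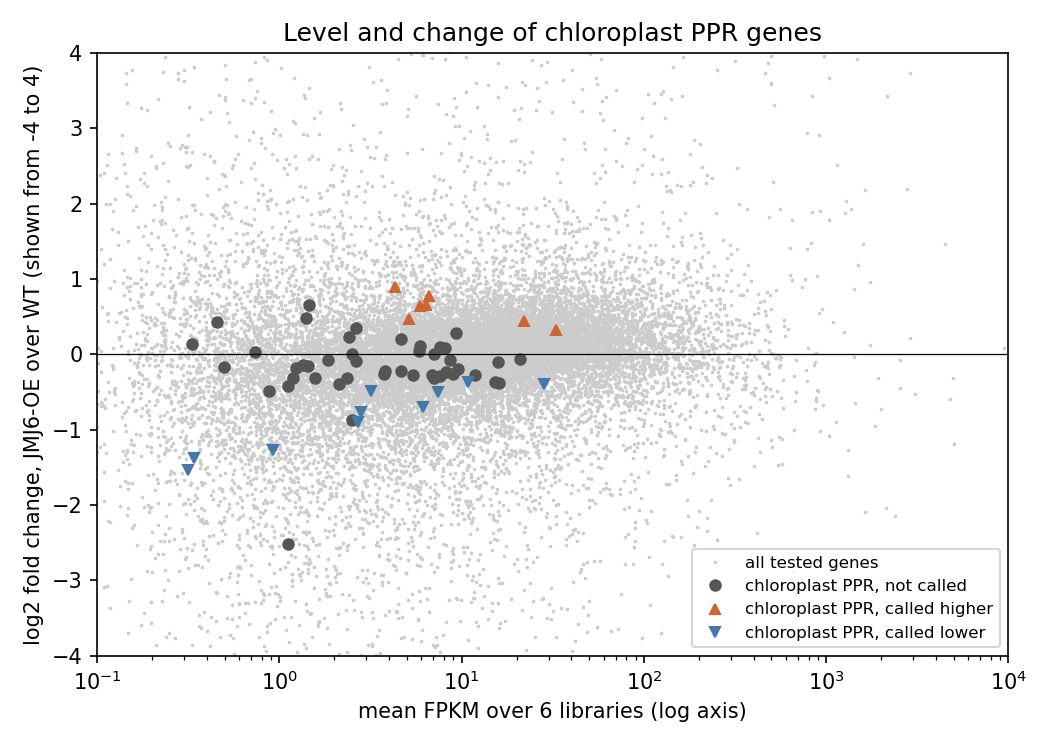
Mean FPKM over the 6 libraries (log axis) against the log2 fold change of JMJ6-OE over WT for the tested chloroplast PPR genes, over all tested genes in grey. The called genes range from the GUN1 gene at 32.9 FPKM to ELI1 at 0.317 FPKM, and the 3 genes called lower by at least 2-fold all lie below 1 FPKM.

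On the per-length scale of the deposited FPKM, the GUN1 gene was the most abundant of the chloroplast PPR genes, with a mean of 32.9 FPKM over the libraries. It was followed by MRL1 (28.2 FPKM), SVR7 (21.9 FPKM), PTAC2 (20.8 FPKM), OTP51 (16.0 FPKM) and the second PPR4 row (15.8 FPKM). In CPM, 28 of the 62 tested genes averaged 10 CPM or more and 10 of these were called, while 7 of the 34 below 10 CPM were called. The share called among all tested genes was 34.3% and was not split by level. Nothing particular to PPR genes is therefore read from these counts. The transcript length implied by counts and FPKM had a median of 2214 bases in the tested chloroplast PPR genes and of 1647 bases in all tested genes. The 3 genes called with at least a 2-fold difference were all scarce, the OTP84, At2g42920 and ELI1 rows standing at 0.918, 0.34 and 0.317 FPKM. Their mean levels were 2.38, 1.90 and 0.578 CPM. The At2g42920 row thus lay near ELI1 in FPKM, which also depends on transcript length, but nearer to OTP84 in CPM.

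Several loci were named by more than 1 tomato row. The 88 rows that name a locus cover 51 loci, and 17 loci were named by 54 rows between them. Chromosome 11 holds 21 of the 89 rows by their identifiers, 23.6% against 6.82% of all rows with a tomato identifier, and only 11 of the 21 were tested. In part these are runs of neighbouring identifiers. Of 6 rows described by At2g42920, all on chromosome 11, 5 neighbours (Solyc11g043020.1 to Solyc11g043085.1) had no count in any library and Solyc11g064750.2 held all counts. Of 7 rows described by the ECB2 locus, an editing factor of accD and ndhF, 6 had no count and Solyc03g119950.1 stood at 0.593 to 1.37 CPM over the libraries, with an uncalled log2 fold change of 0.13 ± 0.40, or -0.28 without JMJ6-OE replicate 2.

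Another run, described by the locus of AEF1, an editing factor of atpF, consists of 5 rows from Solyc11g017310.2 to Solyc11g017370.2. Solyc11g017310.2 had 40, 0 and 34 counts in the WT libraries and 0, 0 and 11 in JMJ6-OE, and Solyc11g017320.2 had 36 counts in WT replicate 1 and none elsewhere. Such values jump between replicates of 1 genotype, and the fitted log2 fold change of Solyc11g017310.2, -2.51 ± 1.68, did not pass (adjusted p = 0.29). Solyc11g017310.2 also carries the symbol EMB2261, which Solyc01g097670.3 of another locus shares. The other tested rows, Solyc11g017330.1 and Solyc11g017340.1, had -0.39 ± 0.33 and -0.07 ± 0.47. For the sum of the 5 rows, the WT libraries gave 3.89, 1.88 and 2.68 CPM, and those of JMJ6-OE gave 1.77, 1.13 and 1.56 CPM. These sums did not overlap, but the separation leans on the rows that jump. In WT replicate 1, Solyc11g017310.2 supplied 1.35 CPM and Solyc11g017320.2 supplied 1.22 CPM. For Solyc11g017330.1 and for Solyc11g017340.1 the genotypes overlapped. Absence of overlap was also common, at 51.4% of all tested genes, so no difference of the locus is read from the sums. The counting could have split reads between such copies, so the values of single rows in these runs are uncertain.

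The 27 rows that were not tested comprise 20 with no count in any library and 7 with at most 36 counts in a library. Among those without a count was the row described as HCF152 (Solyc09g007320.3), a factor of psbB operon processing. A limit of 3 counts corresponds to 0.0752 to 0.111 CPM per library, which covers counting error only. Rows at 0 included copies of loci that were expressed from another row, such as Solyc03g093630.2 of the CRR2 locus and Solyc04g025825.1 of the PPR4 locus.

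The partners of PPR proteins in plastid gene expression also contained called genes in both directions. Over all tested genes 34.3% were called, 17.5% higher and 16.8% lower. Of 15 tested genes of plastid transcription, 5 fell and 1 rose (40% called). PTAC16 (Solyc06g005710.3), a thylakoid-bound protein of the transcription complex fraction, went from 41.5 ± 2.63 to 14.7 ± 2.12 CPM (mean ± SD, n = 3 per group), with a log2 fold change of -1.498 ± 0.13 (SE) and an adjusted p of 3.5e-04. A sigma factor gene described as sigA (Solyc03g097320.3), one of the proteins that guide the plastid polymerase to promoters, fell by 1.77 ± 0.17 on the log2 scale. The phage-type polymerase RPOT3 (Solyc07g005930.3) fell by 0.50 ± 0.07. Of 54 tested RNA partners (editing cofactors, splicing factors, ribonucleoproteins, nucleases and mTERF proteins), 4 rose and 10 fell (25.9% called), with a median log2 fold change of 0.038. A 28 kDa ribonucleoprotein gene (Solyc04g074750.3) had -0.97 ± 0.13, and the mTERF genes Solyc04g005630.3 and Solyc01g109630.3, described as MTERF4 and MTERF2, had 1.01 ± 0.15 and -0.73 ± 0.13. Of 41 tested plastid ribosomal protein genes, 1 rose and 9 fell (24.4% called, median -0.202), among them RPL1 (Solyc01g087730.3, -0.86 ± 0.11) and RPL13 (Solyc07g062190.3, -0.87 ± 0.12).

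Seed tissue in the sampled fruit wall was followed by genes described as oleosins, vicilins, legumins or 11S globulins. Of 28 such rows 10 had no count and 5 were tested, of which 1 rose, the oleosin 1-like gene Solyc06g060840.1. The summed level of the list was 10.4 to 14.63 CPM in WT and 31.93 to 69.18 CPM in JMJ6-OE. That oleosin row alone gave 4.13 to 7.42 CPM in WT and 24.8 to 62.0 CPM in JMJ6-OE, and the other 27 rows together 6.0 to 7.22 and 5.91 to 7.23 CPM. Of the 5 tested estimates 3 were below 0, and their median log2 fold change was -0.121. The part of seed tissue in the differences above was not tested.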

How the data were processed

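Polyadenylated RNA libraries of pericarp were sequenced on an Illumina HiSeq instrument, per the labels. The submitters' processing notes name HISAT2. The version, read counter, genome build, annotation and strandedness were not given in the sources used here, so reads of overlapping or antisense genes cannot be told apart. Per the file headers, the deposited table holds the raw count and the FPKM the authors made for each gene and library, the log2 ratio of the authors' group means, and the authors' p-value and FDR. The counts were tested, the deposited FPKM served for levels per length, and the authors' comparison was not used.

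Genes were kept by filterByExpr (minimum count 10), scaled by TMM and tested for genotype with edgeR 4.0.16 in R 4.3.3 (glmQLFit, robust, and glmQLFTest). The SE is the absolute log2 fold change over the root of the F statistic. Alternatives were upper-quartile or RLE scaling, limma-voom (limma 3.58.1), DESeq2 1.42.0, 2 other filters, the replicate number as a block, omission of each library, and omission of the 2 rows also described as mitochondrial. On simulated counts of 19880 genes for JMJ6-OE against WT, edgeR called 59 of 64 genes with a 4-fold change, 37 of 64 with a 2-fold change and 18 of 66 with a 1.5-fold change, and made 8 false calls. There 19686 genes were unchanged and the spread followed the trend with level, without spread particular to a gene. In the data 34.3% of tested genes were called, so these rates need not hold for this comparison. Counts of replicates differed more than sampling noise in each pair (chi-square per degree of freedom of 19.2 to 71.8), so none was a copy. The genes, role lists and tests were chosen with earlier results of these data known. The genes named are all called members, the tested members of a listed role locus, the most abundant members, and up to 3 called genes of each other list by adjusted p. Rows named for a run of copies or a count of 0, and uncalled rows named for a shared locus, were chosen after their values were seen. Implied length was taken where FPKM was at least 1. Figures were drawn with matplotlib.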

Additional observations from a re-analysis of the deposited data

How the results depend on the processing

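The labels do not say whether the replicate numbers pair the samples. Deviations from the group means had correlations of 0.0638, 0.032 and -0.0603 between same-numbered WT and JMJ6-OE libraries. Such deviations sum to 0 within a group, so these values cannot exclude pairing. With the replicate block 16 chloroplast PPR genes were called, 15 of them shared with the 17 of the model without it. The calls lost under the block were those of Solyc05g006800.1 (adjusted p = 0.073) and Solyc02g081930.3 (0.089). Without 1 library, chloroplast PPR genes called higher ranged from 1 to 7 and those called lower from 5 to 13, and their median log2 fold change ranged from -0.252 to -0.171. Only the fit without JMJ6-OE replicate 1 left 7 higher genes (11.3% against 20.2% of all tested genes). Each other fit left 1 higher gene (1.61% against 9.9% to 13.5%). Over the same fits all genes called higher ranged from 2027 to 4169 and lower from 2046 to 3962, mitochondrial PPR genes called higher from 1 to 4 and lower from 2 to 7, and their median from -0.050 to -0.002. With upper-quartile scaling, 4 chloroplast PPR genes were higher, their median was -0.250 and the mitochondrial median -0.074, while the median of all tested genes moved from -0.012 to -0.075. Without a filter 4 chloroplast PPR genes were higher. RLE scaling, DESeq2, limma-voom, the replicate block, the 1 CPM filter and omission of the rows also described as mitochondrial left the counts of chloroplast PPR genes within 1.5 times. No called chloroplast PPR gene changed sign in any of these alternatives. Of the 45 uncalled ones, 11 did on omitting 1 library. Those with a listed role ranged from -0.444 to 0.757 (Solyc08g077120.2), -0.383 to 0.025 (Solyc01g081110.3), -0.013 to 0.261 (Solyc07g054100.2), -0.280 to 0.362 (Solyc03g119950.1), -0.373 to 0.187 (Solyc11g017340.1), -0.106 to 0.166 (Solyc09g065710.1) and -0.051 to 0.056 (Solyc04g015440.3), and the last 2 stood at -0.030 and -0.053 with upper-quartile scaling. The other 4 ranged from -0.316 to 0.076 (Solyc06g005220.2), -0.341 to 0.152 (Solyc03g112190.3), -0.083 to 0.079 (Solyc09g010450.1) and -0.131 to 0.147 (Solyc07g052590.1). The last 2 of these also changed sign with upper-quartile scaling, and Solyc07g052590.1 with RLE scaling, DESeq2, limma-voom, the 1 CPM filter and the replicate block too. The share of chloroplast PPR genes called lower was above that of all tested genes with limma-voom (17.7% against 16.9%), no filter (14.5% against 12.7%), the 1 CPM filter (19.6% against 18.0%) and the replicate block (17.7% against 14.7%), and without WT replicate 1 (14.5% against 14.4%) or JMJ6-OE replicate 1 (21.0% against 19.2%). It was below that of all tested genes with DESeq2 (17.7% against 19.3%) and RLE scaling (16.1% against 16.9%). The same held without WT replicate 2 (9.68% against 11.7%) or 3 (9.68% against 12.6%), and without JMJ6-OE replicate 2 (8.06% against 9.99%) or 3 (8.06% against 11.4%). The difference of shares was not tested. The causes were not tested.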

Other observations

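One chloroplast PPR row lies next to the ripening marker named above, by its identifier. The second row of the CRR28 locus, Solyc10g080220.2, follows the polygalacturonase row Solyc10g080210.2, whose log2 fold change was 6.61 ± 0.23. The PPR row stood at 2.94, 2.48 and 3.29 CPM in WT and at 1.67, 2.73 and 2.11 CPM in JMJ6-OE, and it was not called. On chromosome 2, the OTP84 row Solyc02g081900.3, which fell, and the short row Solyc02g081930.3, which rose, have identifiers on either side of that of PTAC14, another gene of plastid transcription. Both pairs were chosen after their values were seen, and without the strand of counting it is not known whether reads of such neighbours were kept apart.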
